A study of Homo sapiens with 6 samples.

Results

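The genes described here were IFI6, IFI27, IFI35, IFI44, IFI44L, BST2, RSAD2, XAF1, EPSTI1 and CMPK2, 10 genes that cells switch on in response to interferon. They were found by gene symbol, all 10 among the 58174 genes listed for each sample, and were measured by RNA-seq in T24 cells, an established human bladder cancer line. The cells stably carried either a scrambled control shRNA (shRNA-NC, 3 samples) or an shRNA against UBC9 (shRNA-UBC9, 3 samples), both described by the study as stably expressed, with the shRNA against UBC9 delivered by a lentiviral vector and infected cells selected with puromycin. UBC9 is the conjugating enzyme that attaches SUMO to proteins. A single shRNA sequence against UBC9 is described, and the sources used here do not say whether replicates came from separate cultures, so the p-values measure the spread between these samples, which may be technical. Libraries held between 28219032 and 36058872 mapped reads. RPKM is a read number divided by gene length and by sequencing depth.

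Interferons are secreted proteins that bind receptors at the cell surface. The receptors activate the kinases JAK1, JAK2 and TYK2, which phosphorylate transcription factors of the STAT family. A complex of these with IRF9 binds interferon-stimulated response elements in promoters, while STAT dimers bind gamma-activated sites. The genes described here lie at the end of this chain. IFI6 and IFI27 encode small hydrophobic membrane proteins of the same family, BST2 encodes tetherin, which holds budding virus at the cell surface, and RSAD2 encodes viperin, an enzyme that turns CTP into a chain terminator of viral RNA synthesis. CMPK2, a mitochondrial nucleotide kinase, is the divergent neighbour of RSAD2. IFI44 and IFI44L are neighbouring paralogs, IFI35 is a leucine zipper protein, XAF1 binds the apoptosis inhibitor XIAP, and EPSTI1 was named for its induction in epithelial cells grown with stromal cells.

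The promoters are shown first because the response element is the feature through which interferon is known to act on such genes. RefSeq windows (GRCh38.p14) running from 250 bases before a start site to 50 bases after it were found for 10 of 10 genes. The core of the response element was searched as GAAA and GAAA with 2 bases of any kind between them, or on the other strand TTTC and TTTC with 2 bases between them, with overlapping matches allowed. At least 1 match lay in a window of 7 of the 10 genes, and the following stretches show the matches in capitals with the bases around them, read 5′ to 3′ on the strand of the gene.
IFI6: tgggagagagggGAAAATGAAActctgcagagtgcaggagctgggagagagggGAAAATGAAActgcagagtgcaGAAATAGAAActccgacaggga
IFI27: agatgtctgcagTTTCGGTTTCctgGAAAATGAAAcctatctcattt
IFI44: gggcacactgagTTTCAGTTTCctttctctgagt
IFI44L: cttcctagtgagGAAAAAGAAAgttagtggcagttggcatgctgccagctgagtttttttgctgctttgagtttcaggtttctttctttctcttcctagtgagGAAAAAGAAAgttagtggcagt
BST2: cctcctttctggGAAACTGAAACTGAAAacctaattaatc
RSAD2: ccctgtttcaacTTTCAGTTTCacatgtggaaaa
EPSTI1: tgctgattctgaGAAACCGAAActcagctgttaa

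The IFI6 stretch (chr1:27672264-27672360, minus strand) held 3 matches, and a run of 24 bases occurred in it more than once. The IFI27 stretch (chr14:94110616-94110662, plus strand) held 2 matches in opposite orientations. The IFI44 stretch lay at chr1:78649759-78649792 and the IFI44L stretch at chr1:78620272-78620396, both on the plus strand. In the IFI44L stretch the same 34 bases stood at both ends, so that its 2 matches and their surroundings were identical. The 2 matches of BST2 (chr19:17405733-17405772, minus strand) overlapped each other. The EPSTI1 stretch lay at chr13:42992270-42992303 on the minus strand. The match of RSAD2 (chr2:6877620-6877653, plus strand) lay before the second of its 2 RefSeq start sites, and the window of the first start held none.

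No match was in the windows of IFI35, XAF1 or CMPK2. Of all 35116 windows, 3.57% held a match. Counted by gene, 13.8% of the 428 up-regulated genes with a window and 3.93% of the 9180 tested genes with a window held at least 1. So did 24 of the 33 other interferon-stimulated effectors that were tested and had a window, or 72.7%. These sets overlap, since the up-regulated genes include the 10 genes and the called effectors with a window. The share of up-regulated genes without them was not computed. The core of the gamma-activated site, searched as TTC and GAA with 3 bases of any kind between them, which reads the same on both strands, was found in the windows of IFI27, IFI35, BST2 and EPSTI1, 4 of the 10 genes. Counted by gene, it was in 8.49% of tested, 12.4% of up-regulated and 11.8% of down-regulated genes with a window. Among the 33 other interferon-stimulated effectors that were tested and had a window, 9 held it, or 27.3%. In IFI27, BST2 and EPSTI1 a match of this motif overlapped a match of the response element. A match is only a run of letters, and none of these windows was tested for binding.

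**Figure D1:**
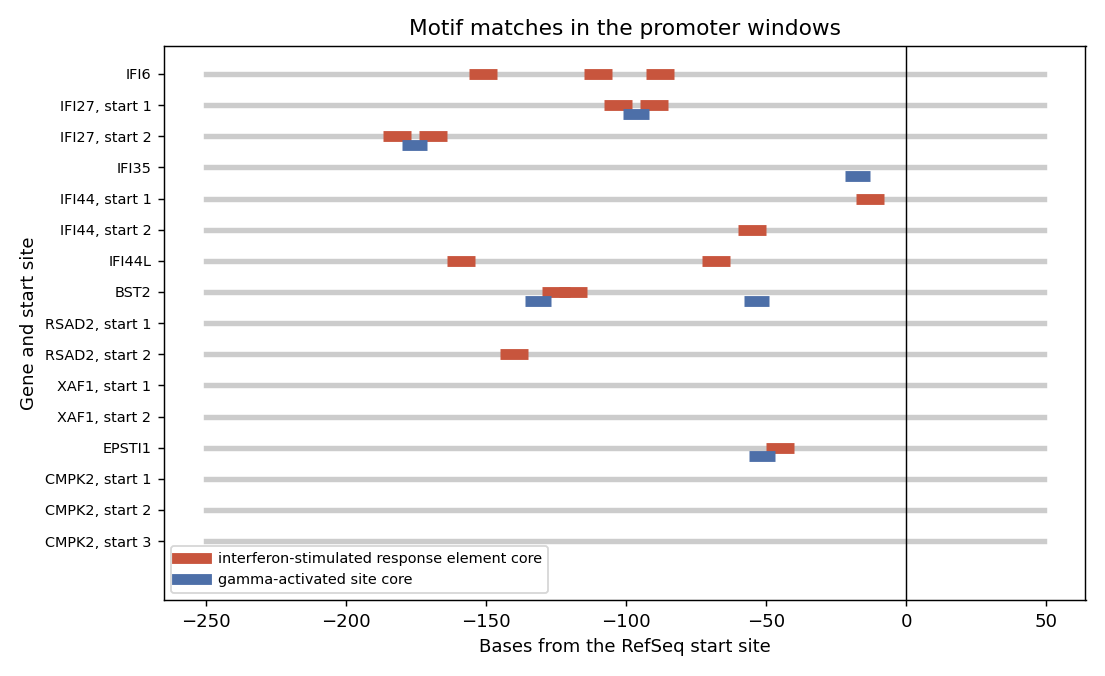
Positions of the motif matches in each promoter window; the x axis gives bases from the RefSeq start site and each row is a start site of a gene, with red blocks for the response element core and blue blocks for the gamma-activated site core. Matches of the response element lie before the start in IFI6, IFI27, IFI44, IFI44L, BST2, RSAD2 and EPSTI1, and the rows of XAF1 and CMPK2 are empty.

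The main comparison asked how the transcripts of these genes differed between shRNA-UBC9 and shRNA-NC cells. Each of the 10 genes was higher in every shRNA-UBC9 sample than in any shRNA-NC sample, with log2 fold changes from 1.81 for BST2 to 4.96 for IFI44L. Differences were tested with limma on log2(RPKM + 0.1) over the 12428 genes that reached 0.5 RPKM in at least 3 of the 6 samples, and a gene was called up-regulated at a log2 fold change above 1 and a Benjamini-Hochberg adjusted p below 0.05. All 10 genes were tested and 10 of 10 were called up-regulated, where 5.2% of all tested genes were. RSAD2 and CMPK2 reached 0.5 RPKM in only 1 shRNA-NC sample and so were tested because of their level in shRNA-UBC9 cells. The 8 genes at or above 0.5 RPKM in every sample were called in 8 of 8 cases, with a median log2 fold change of 2.73 against 0.00 over all tested genes. Values did not overlap between the groups in 10 of 10 genes, and in this direction the same held for 25.7% of tested genes. For each gene the two-sided p of an exact permutation test was 0.1, the smallest that 3 against 3 samples allow. These are bulk samples, in which a larger share of responding cells and more RNA per cell cannot be told apart.

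**Figure D2:**
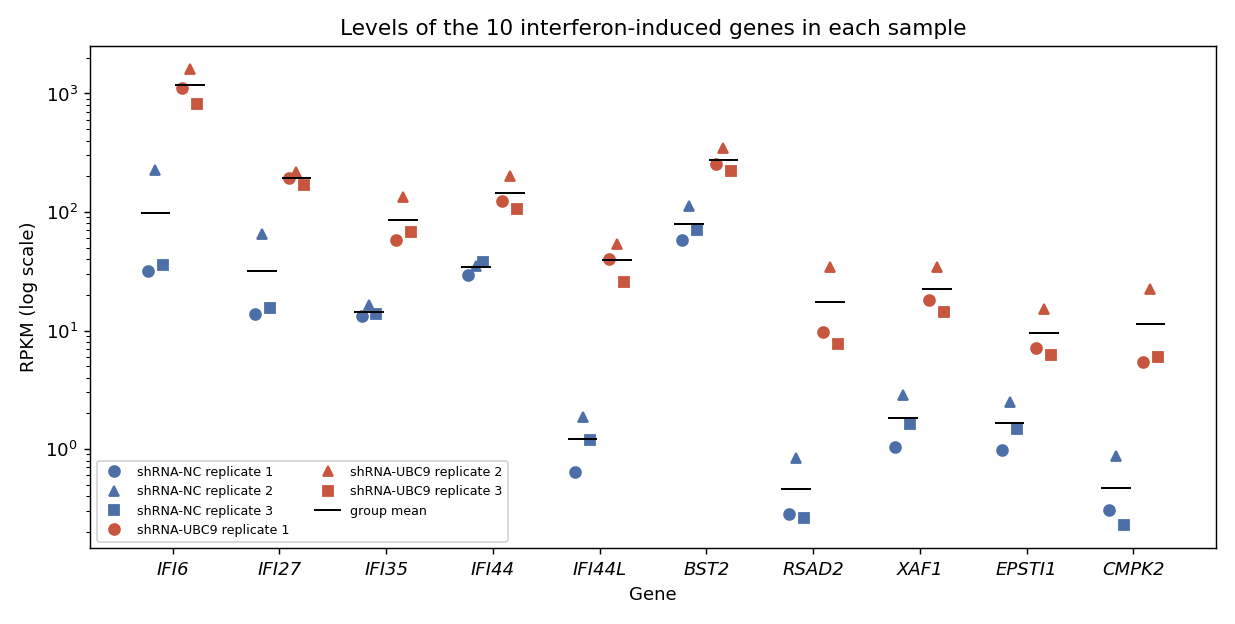
RPKM of the 10 genes in each sample on a log scale, with shRNA-NC in blue, shRNA-UBC9 in red, a marker shape for each replicate number and a black line at the group mean (n = 3). The groups do not overlap for any of the 10 genes, and replicate 2, the triangle, is the highest shRNA-UBC9 sample for each gene.

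IFI6 (ENSG00000126709.16, chr1:27666064-27672212, minus strand) was the most abundant of the 10 genes in each shRNA-UBC9 sample. In shRNA-NC cells it led only in replicate 2, and BST2 was higher in the other replicates. Its level was 31.6, 226 and 35.7 RPKM in the shRNA-NC samples and 1105, 1616 and 814 RPKM in the shRNA-UBC9 samples. The shRNA-NC samples thus spread widely, with replicate 2 at 6.70 times the mean of the other samples, but the lowest shRNA-UBC9 sample was still 3.61 times the highest shRNA-NC sample. The log2 fold change was 4.16 (SE 0.67, 95% confidence interval 2.62 to 5.70, limma adjusted p = 0.0024). Without shRNA-NC replicate 2 it was 5.07, 1.89 times as large on the linear scale. Among the 12428 tested genes IFI6 was at rank 14 by mean level in shRNA-UBC9 cells and at rank 312 in shRNA-NC cells, or at rank 1172 in these without replicate 2. In GENCODE release 44 it shares 216 exon bases with LINC02574 on the same strand, whose reads could not be separated from it here.

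IFI27 (ENSG00000165949.13, chr14:94104836-94116695, plus strand), the family relative of IFI6 found at mitochondria and the nuclear envelope, had the same pattern at a lower level. It was at 13.8, 65.4 and 15.6 RPKM in the shRNA-NC samples and at 192, 220 and 169 RPKM in the shRNA-UBC9 samples. Replicate 2 of shRNA-NC was at 4.45 times the mean of the other shRNA-NC samples, whereas the shRNA-UBC9 samples lay close together. The log2 fold change was 2.99 (SE 0.51, interval 1.82 to 4.16, limma adjusted p = 0.0030), and 3.70 without shRNA-NC replicate 2. The ratio of IFI6 to IFI27 ranged from 2.28 to 3.45 among shRNA-NC and from 4.82 to 7.36 among shRNA-UBC9 samples, so IFI6 rose by 1.17 more on the log2 scale. These ratios did not overlap between groups (exact permutation p = 0.1, the smallest possible).

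The paralogs that flank IFI27 moved less. IFI27L1, 989 bases away on chromosome 14, was at 2.13, 2.60 and 3.19 RPKM in the shRNA-NC samples and 3.85, 3.39 and 2.90 RPKM in the shRNA-UBC9 samples, which overlap (log2 fold change 0.35, SE 0.16, limma adjusted p = 0.13). IFI27L2 was at 9.51, 7.73 and 10.9 RPKM against 13.3, 13.8 and 15.1 RPKM, without overlap, and its log2 fold change of 0.59 (SE 0.13, limma adjusted p = 0.0085) stayed under the limit for a call. The ratio of IFI27 to IFI27L1 differed by 2.63 and that of IFI27 to IFI27L2 by 2.39 between groups on the log2 scale, each without overlap. How reads shared by such relatives were assigned is not given in the sources used here.

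BST2 (ENSG00000130303.14, chr19:17402939-17405630, minus strand), which encodes tetherin, had the smallest log2 fold change of the 10 when all 6 samples were used. Without both samples numbered 2, IFI44 was lower, at 1.78 against 1.90 for BST2, and without shRNA-NC replicate 2 alone it was at 2.05 against 2.08. Its levels were 57.7, 112 and 70.3 RPKM in the shRNA-NC samples and 254, 345 and 223 RPKM in the shRNA-UBC9 samples. The lowest shRNA-UBC9 sample was 1.996 times the highest shRNA-NC sample, the narrowest gap among the 10 genes. The log2 fold change was 1.81 (SE 0.25, interval 1.25 to 2.37, limma adjusted p = 0.0011). BISPR, the long non-coding RNA that starts 55 bases away in the opposite direction, was at 2.12, 2.84 and 2.61 RPKM in the shRNA-NC samples and 4.98, 5.05 and 3.78 RPKM in those with shRNA-UBC9. Its log2 fold change of 0.84 (SE 0.15, limma adjusted p = 0.0038) was not called, and the ratio of BST2 to BISPR was higher in each shRNA-UBC9 sample, by 0.97 on the log2 scale.

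RSAD2 and CMPK2 lie head to head on chromosome 2 and were nearly silent in shRNA-NC cells. RSAD2 (ENSG00000134321.13, chr2:6865557-6898239, plus strand) was at 0.284, 0.842 and 0.263 RPKM in the shRNA-NC samples, from 41, 141 and 43 reads, and at 9.72, 34.5 and 7.69 RPKM in the shRNA-UBC9 samples. CMPK2 (ENSG00000134326.12, chr2:6840570-6866635, minus strand) was at 0.304, 0.866 and 0.227 RPKM, from 39, 129 and 33 reads, and at 5.45, 22.4 and 6.02 RPKM. Replicate 2 was the highest sample of each group for both genes, at 3.08 and 3.26 times the mean of the other samples in shRNA-NC and at 3.96 and 3.91 times in shRNA-UBC9. The 95% Poisson interval of the lowest value, CMPK2 in shRNA-NC replicate 3, was 0.156 to 0.318 RPKM, which covers counting error only and lay below that of replicate 2.

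The log2 fold change of RSAD2 was 4.77 (SE 0.57, interval 3.47 to 6.06, limma adjusted p = 0.00061) and that of CMPK2 was 4.18 (SE 0.57, interval 2.88 to 5.49, limma adjusted p = 0.0011). Both genes entered the fit through their level in shRNA-UBC9 cells, which favoured a difference, so these p-values are no independent support. Because the control levels are low, the fold changes depend on the pseudocount: with a pseudocount of 1 they were 3.37 and 2.82. Without shRNA-UBC9 replicate 2 they were 4.10 and 3.53. Per length, RSAD2 and CMPK2 were about equal in shRNA-NC cells, with ratios of 0.936, 0.973 and 1.16, and RSAD2 was the higher in shRNA-UBC9 cells, with ratios of 1.78, 1.54 and 1.28. Their annotated exons share 351 bases on opposite strands, and since the strand setting of the counting is not given in the sources used here, reads from that stretch cannot be told apart. NRIR, a long non-coding RNA 105 bases beyond CMPK2, was not tested, with 0 or 1 read in each shRNA-NC sample and 1, 5 and 3 reads in the shRNA-UBC9 samples. These are the smallest whole read numbers that fit its values.

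IFI44L changed more than its neighbour IFI44, which started from a higher level. IFI44L had the highest log2 fold change of the 10 genes in the limma fit on log2(RPKM + 0.1), but limma-voom put RSAD2 at 5.08 and IFI44L at 5.06. IFI44L (ENSG00000137959.17, chr1:78619902-78646145, plus strand) was at 0.635, 1.85 and 1.19 RPKM in the shRNA-NC samples and at 39.9, 53.3 and 25.8 RPKM in the shRNA-UBC9 samples. The lowest shRNA-UBC9 sample was 13.9 times the highest shRNA-NC sample, the widest gap of the 10 genes, and the log2 fold change was 4.96 (SE 0.36, interval 4.13 to 5.79, limma adjusted p = 6.8e-05), or 4.17 with a pseudocount of 1. IFI44 (ENSG00000137965.11, chr1:78649796-78664078, plus strand), 3650 bases downstream, was at 29.2, 34.7 and 38.2 RPKM in the shRNA-NC samples and at 124, 201 and 106 RPKM in the shRNA-UBC9 samples. It was the only gene of the 10 whose highest shRNA-NC sample was not replicate 2. Its log2 fold change was 2.03 (SE 0.22, interval 1.53 to 2.53, limma adjusted p = 0.000415). IFI44L stood at between 0.0217 and 0.0533 of the level of IFI44 under shRNA-NC and at between 0.243 and 0.321 under shRNA-UBC9. The change of this ratio, 2.93 on the log2 scale, was the largest of the 6 gene pairs compared, and each of the 6 gave an exact permutation p of 0.1 before and after Benjamini-Hochberg adjustment.

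IFI35 (ENSG00000068079.8, chr17:43006740-43014456, plus strand), which encodes a leucine zipper protein that partners with NMI, was steady in shRNA-NC cells at 13.2, 16.4 and 13.7 RPKM. It was at 58.6, 133 and 67.6 RPKM in the shRNA-UBC9 samples, where replicate 2 stood at 2.11 times the mean of the other samples. The log2 fold change was 2.48 (SE 0.27, interval 1.86 to 3.10, limma adjusted p = 0.00044).

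XAF1 and EPSTI1 were expressed at low levels in shRNA-NC cells. XAF1 (ENSG00000132530.17, chr17:6755447-6775647, plus strand), which counters the caspase inhibitor XIAP, was at 1.03, 2.87 and 1.63 RPKM in the shRNA-NC samples and at 18.1, 34.1 and 14.5 RPKM in those with shRNA-UBC9. The log2 fold change was 3.53 (SE 0.39, interval 2.65 to 4.42, limma adjusted p = 0.00045). The annotated transcript PRAL shares 2535 exon bases with XAF1 on the other strand and was listed at 0 in each sample. EPSTI1 (ENSG00000133106.15, chr13:42886388-42992271, minus strand) was at 0.987, 2.51 and 1.47 RPKM against 7.10, 15.2 and 6.15 RPKM. Its log2 fold change was 2.43 (SE 0.39, interval 1.54 to 3.31, limma adjusted p = 0.0023). In both genes replicate 2 was the highest sample of each group.

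**Figure D3:**
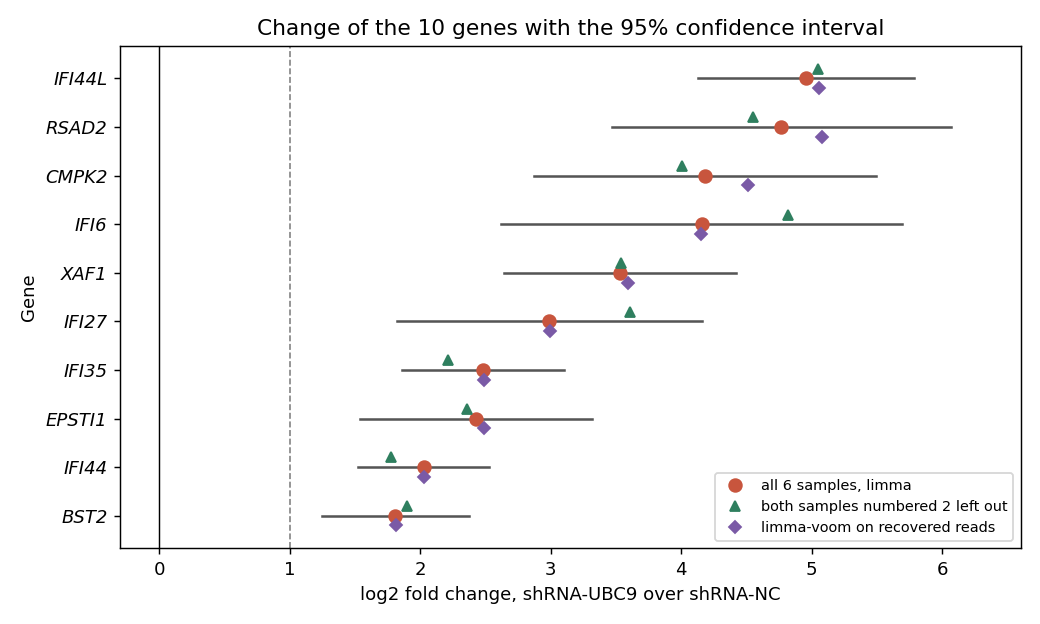
log2 fold change of shRNA-UBC9 over shRNA-NC for the 10 genes, with red points for the limma fit on all 6 samples, bars for its 95% confidence interval, triangles for the fit without both samples numbered 2 and diamonds for limma-voom on recovered reads; the dashed line marks 1. Each bar lies to the right of 1, and the triangles of IFI6 at 4.82 and IFI27 at 3.61 lie above their red points.

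The order of the levels changed with the group. In shRNA-UBC9 cells the mean levels ran from IFI6 (1178 ± 406 RPKM, SD, n = 3) and BST2 (274 ± 63.5) through IFI27 (194 ± 25.4), IFI44 (144 ± 50.1), IFI35 (86.4 ± 40.6), IFI44L (39.7 ± 13.8), XAF1 (22.2 ± 10.5), RSAD2 (17.3 ± 14.9) and CMPK2 (11.3 ± 9.62) to EPSTI1 (9.496 ± 4.99). The samples of IFI6 and BST2, of BST2 and IFI27, and of IFI35 and IFI44L did not overlap, whereas all other neighbours in this order did. In shRNA-NC cells IFI6 (97.6 ± 111), BST2 (79.9 ± 28.2), IFI44 (34.04 ± 4.52), IFI27 (31.6 ± 29.3) and IFI35 (14.5 ± 1.71) lay well above XAF1 (1.84 ± 0.936), EPSTI1 (1.66 ± 0.778), IFI44L (1.23 ± 0.608), CMPK2 (0.465 ± 0.349) and RSAD2 (0.463 ± 0.328). There the samples of BST2 and IFI44 and those of IFI35 and XAF1 did not overlap, whereas all other neighbours did. IFI44L, at the eighth place there, stood at the sixth in shRNA-UBC9 cells. Together the 10 genes took from 0.0256% to 0.0752% of mapped reads under shRNA-NC and from 0.246% to 0.448% under shRNA-UBC9.

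The replicates were then compared with each other, since samples numbered 2 could be higher in both groups. Replicate 2 was the highest shRNA-UBC9 sample for 10 of the 10 genes, where it was the highest for 30.8% of tested genes. It was the highest shRNA-NC sample for 9 of the 10, where it was for 41.2% of tested genes. Both held together for 9 of the 10, all but IFI44, against 14.8% of tested genes. On average the 10 genes lay 0.79 above the group mean on the log2 scale in shRNA-NC replicate 2 and 0.69 above it in shRNA-UBC9 replicate 2. Among the shRNA-NC samples IFI6 and IFI27 deviated most, by 1.83 and 1.43, and among the shRNA-UBC9 samples RSAD2 and CMPK2 did, by 1.32 and 1.30.

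The spread between replicates was larger than counting error for 10 of 10 genes in each group, as it was for 88.5% of tested genes in shRNA-NC and 89.0% in shRNA-UBC9 cells, so this is no feature of these genes. In shRNA-NC cells IFI6 had a coefficient of variation of 114%, where its read number alone gives 1.87%, and RSAD2 had 70.9% where its read number gives 11.5%. Replicate 2 held 34635214 mapped reads in shRNA-NC, the highest of that group, and 35235789 in shRNA-UBC9, the middle one. What set replicate 2 apart was not tested.

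The size of the effect differed with the replicate number. IFI6 was 35.0 times as high in shRNA-UBC9 as in shRNA-NC between the samples numbered 1, 7.16 times between those numbered 2 and 22.8 times between those numbered 3. For IFI27 these ratios were 13.9, 3.36 and 10.8. IFI35 went the other way, with 4.43, 8.11 and 4.92. The sources used here do not say whether the numbers pair the samples, so these ratios only show how far the choice of samples moves the fold. When both samples numbered 2 were left out, 10 of the 10 genes were still called, with log2 fold changes from 1.78 for IFI44 to 5.05 for IFI44L and limma adjusted p from 8.1e-05 to 0.0013. In that fit 947 of 12483 tested genes were called, 633 of them up-regulated.

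**Figure D4:**
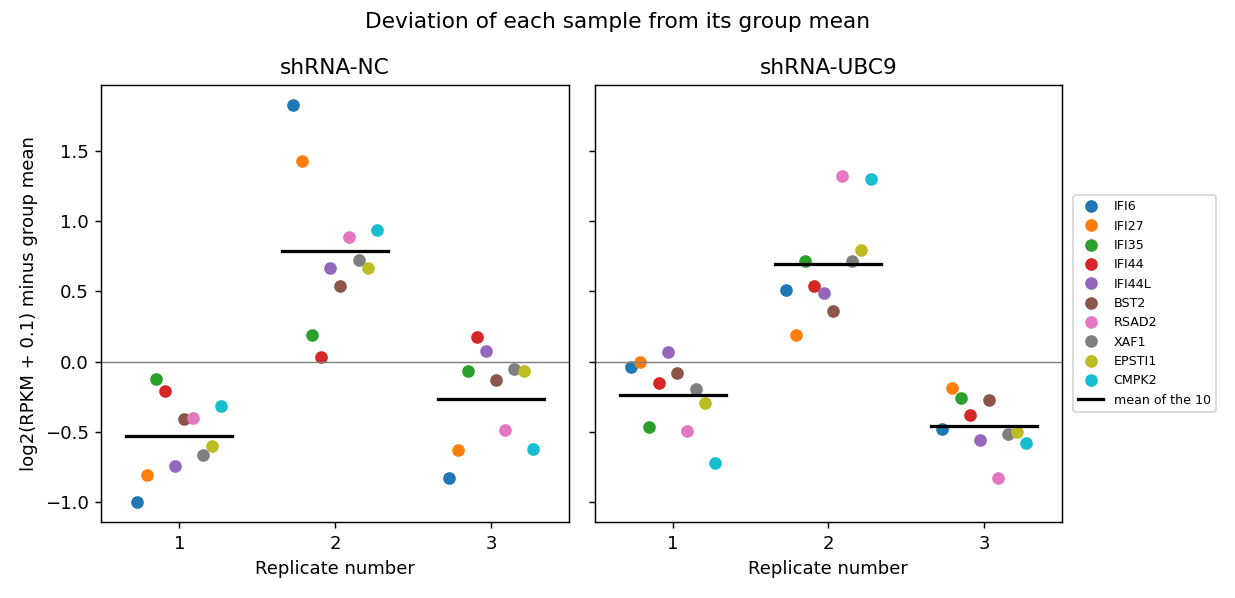
Difference of log2(RPKM + 0.1) from the group mean for the 10 genes in each replicate, with a panel for each group, a color for each gene and a black line at the mean of the 10. Replicate 2 has the highest mean in each panel, at 0.79 in shRNA-NC and 0.69 in shRNA-UBC9, and IFI6 at 1.83 and IFI27 at 1.43 stand out in shRNA-NC.

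The genes upstream in the interferon pathway were given by role. Among the 10 listed ligands, IFNL1, a type III interferon, was the only one tested. It was at 0.0391, 0.0674 and 0.0690 RPKM in the shRNA-NC samples, from 1, 2 and 2 reads, and at 0.680, 2.38 and 0.620 RPKM in the shRNA-UBC9 samples, from 21, 72 and 15 reads. It was tested because of its level in shRNA-UBC9 cells and so had to differ, and its log2 fold change of 2.82 (limma adjusted p = 0.0027), which passed the limits for a call, depends on the pseudocount and supports nothing here. IFNB1, interferon beta, had 0 reads in each shRNA-NC sample and 15, 24 and 5 reads in the shRNA-UBC9 samples, too few to be tested here. The type II interferon gene IFNG was listed at 0 in each sample.

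Of the 6 receptor genes tested, 1 was called up-regulated and none down-regulated. Over all tested genes 5.2% were called up-regulated. IFNLR1, the specific chain of the type III interferon receptor, had a log2 fold change of 1.17 (SE 0.18, limma adjusted p = 0.0019). IFNGR2 lay just under the limit at 0.999 (SE 0.12, limma adjusted p = 0.00055) and was over it with limma-voom on the recovered reads. IFNAR1 differed little, at 0.10 (SE 0.10, limma adjusted p = 0.50), as did IFNGR1, at -0.17 (SE 0.15, limma adjusted p = 0.42). IFNAR2 was at 0.71 (SE 0.14, limma adjusted p = 0.0064) and IL10RB at 0.48 (SE 0.10, limma adjusted p = 0.0085). Neither was called, though their values did not overlap between the groups.

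Among the 9 signal transducers, 3 were called up-regulated, where 5.2% of all tested genes were. IRF7, a transcription factor of the type I interferon genes, had a log2 fold change of 2.52 (SE 0.19, limma adjusted p = 8.3e-05) and IRF9 of 1.52 (SE 0.12, limma adjusted p = 0.00011). STAT2 was at 0.85 and was not called, while TYK2 and JAK2 were at -0.03 and -0.01 (limma adjusted p = 0.82 and 0.96). IRF7 and IRF9 were among the 3 of the 9 transducers that were highest in replicate 2 of both groups, where 14.8% of tested genes were.

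Of the 4 feedback inhibitors tested, USP18, which removes ISG15 and blocks the type I receptor, was at 5.19, 8.72 and 5.98 RPKM in the shRNA-NC samples and 26.8, 81.4 and 33.1 RPKM in the shRNA-UBC9 samples (log2 fold change 2.67, SE 0.38, limma adjusted p = 0.0014). SOCS3 was also called (1.02, SE 0.21, limma adjusted p = 0.0064), SOCS1 and PTPN2 were not. Of the 42 other interferon-stimulated effectors tested, 36 were called up-regulated and 0 down-regulated, with a median log2 fold change of 2.01. Over all tested genes 5.2% were called up-regulated. The effectors ran from OASL at -0.11 to MX1 at 4.53. Of the 42, 31 were highest in replicate 2 of both groups, against 14.8% of tested genes. The median of the 10 genes described here was 3.26, which includes RSAD2 and CMPK2, tested because of their level in shRNA-UBC9 cells. For the 8 genes at or above 0.5 RPKM in every sample it was 2.73. Both were higher than the median of this list, a difference that was not tested.

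**Figure D5:**
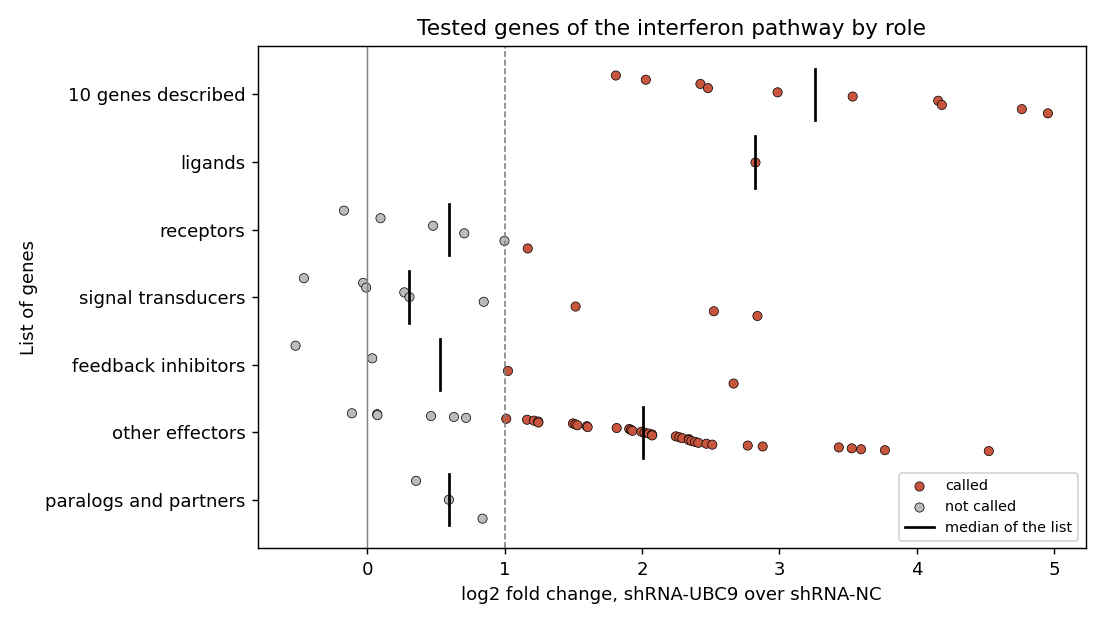
log2 fold change of shRNA-UBC9 over shRNA-NC for the tested genes of each list, with a point per gene, red where it was called and gray where it was not, and a black line at the median of the list; the dashed line marks 1. The 10 genes described here and 36 of the 42 other effectors are called, against 1 of 6 receptors and 3 of 9 transducers.

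Genes with the most similar pattern were sought among the other tested genes. Over the 6 samples, the highest Pearson correlation with the mean standardised profile of the 10 genes was that of CXCL16 (r = 0.999), followed by RNF114, OAS2, CFB and IFITM1, at r = 0.998 to 0.999. RNF114 had this shape with a log2 fold change of only 0.42. The 10 genes themselves correlated at 0.965 to 0.999 with the profile they make up, and 2.94% of the other tested genes reached the lowest of these values. When group means were removed, the highest correlations with the mean deviation of the 10 genes were those of THOC1, VPS45, IFITM1, CXCL16 and AHSA1 (r = 0.995 to 0.997). These are descriptions over 6 samples, and 13.6% of the other tested genes reached the lowest value among the 10 genes, 0.707.

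The labelled cell type was compared with its markers. The epithelial keratins KRT7, KRT8, KRT18 and KRT19 were expressed in each sample, as was VIM, while KRT5, CDH1 and UPK1B were at or near 0. KRT5 marks basal and UPK1B differentiated urothelial cells, and CDH1 encodes E-cadherin. The 13 listed epithelial and bladder markers summed to 1380 to 1627 RPKM under shRNA-NC and to 809.8 to 911 RPKM under shRNA-UBC9. Of these sums, VIM alone gave 416 to 496 RPKM under shRNA-NC and 286 to 473 RPKM under shRNA-UBC9, so they do not follow the keratins alone. Of the 9 markers tested, 3 (KRT7, KRT17 and PPARG) were called down-regulated, where 335 of 12428 tested genes were, and VIM was not called. KRT7, KRT8, KRT18 and KRT19 had log2 fold changes of -1.11, -0.81, -0.93 and -0.99 (limma adjusted p of at most 0.0070). Only 1 of the 9, EPCAM, was above 0, and it was not called. Of 12 immune cell markers, CD68 was at 1.53 to 3.24 RPKM under shRNA-NC and 18.6 to 48.4 RPKM under shRNA-UBC9. The other 11 summed to 0.706 to 1.59 RPKM under shRNA-NC and to 0.884 to 1.98 RPKM under shRNA-UBC9, and the leukocyte marker PTPRC was at 0.102 RPKM or less in each. MS4A1 and LILRA4 were at 0 in each sample. The part of the shifts in CD68 and in the listed epithelial and bladder markers in the results above was not tested.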

How the data were processed

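Polyadenylated RNA of T24 cells was sequenced in 3 shRNA-NC and 3 shRNA-UBC9 samples, grouped by their labels. The authors trimmed adaptors, mapped reads to GRCh38 (hg38) with the CLC Biomedical Genomics Workbench at default parameters and deposited RPKM values per gene and sample. The annotation release, the strand setting and the handling of multi-mapping reads are not given in the sources used here. RPKM is scaled to gene length and mapped reads, not to RNA composition.

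After conversion to log2(RPKM + 0.1), the 12428 genes with at least 0.5 RPKM in at least 3 of 6 samples were tested between groups by limma 3.58.1 (R 4.3.3, eBayes with an intensity trend, Benjamini-Hochberg adjustment over all tested genes). Fold changes on this scale understate the change of low genes. Since an RPKM value is a whole number of reads over a whole gene length, the read numbers of 100% of tested genes could be recovered within 0.002 reads. Poisson intervals from these cover counting error only, as PCR copies are not independent molecules. limma-voom on these reads was an alternative chosen after seeing the data. Identical values above 0 were found in 0 cases between samples, so no sample was a plain copy of another. This cannot show that the libraries were separate, since a library sequenced again at another depth would also give different values.

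The members and all lists were chosen with earlier results of these data known. Named genes were the 10 members, genes of the ligand, receptor, transducer, inhibitor and partner lists, the extremes of the other effectors, the 5 most similar genes by each measure and the markers. RIGI, on the effector list, was counted there as DDX58. Gene positions and exon overlaps came from GENCODE release 44 and promoters from RefSeq (GRCh38.p14). Protein sequences were not used here, and some listed genes are not reported here. The fits were checked on simulated data in which samples varied independently in each gene. Samples that deviate in many genes at once were not covered by that check. Python 3.11.15 with scipy 1.17.1 gave the exact permutation tests and matplotlib 3.10.9 the figures.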

Additional observations from a re-analysis of the deposited data

How the results depend on the processing

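In 16 alternatives, the 10 genes gave 156 log2 fold changes, between 1.60 and 5.29, and 156 of 156 kept their direction and their call, with limma adjusted p of at most 0.015. These include RSAD2 and CMPK2, which passed the main filter through their level in shRNA-UBC9 cells. With a minimum of 1 RPKM in all samples, 6 of the 10 genes were called, because IFI44L, RSAD2, EPSTI1 and CMPK2 were then not tested. That minimum left 552 of 10438 tested genes called, against 981 of 12428, and a pseudocount of 1 left 552 of 12428; the cause of the latter was not tested. Leaving out each sample in turn gave 945 to 1126 called genes, 10 called members and 40 to 45 called genes of the interferon pathway lists, against 43 of 62. Leaving out both samples numbered 2 gave 947 called genes and limma-voom 1056, both chosen after seeing the data.

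Across tested genes, deviations from the group mean correlated weakly or negatively between same-numbered samples (r = -0.37, 0.07 and -0.17 for numbers 1, 2 and 3). The numbers were not taken to pair the samples, but with 3 samples per group these values cannot decide whether they do. Between differently numbered samples r ran from -0.32 to 0.53. The highest was that of shRNA-NC replicate 1 with shRNA-UBC9 replicate 3, the samples with the fewest mapped reads of their groups. What these samples share was not tested. With a replicate block 974 genes and 10 members were called, and no call of the 10 genes changed. Replicate 2 was highest in both groups for 9 of the 10 genes with median scaling and with quantile normalization too, where 11.7% and 11.8% of all tested genes were. Depth limits RSAD2, CMPK2 and the interferon ligands, whose control values rest on few reads.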
